A study of Mus musculus with 10 samples.

Results

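The connexin genes described here are Gja1, Gja3 and Gje1, which code for connexin43, connexin46 and connexin23. They were taken as every probe set whose single gene symbol is one of these names, which gave 9 probe sets (6 for Gja1, 2 for Gja3 and 1 for Gje1) of 45101 on the array, and 3 genes of the 18193 named on it. The rule used no measured value, but the members were chosen with earlier results of these data known. All 9 probe sets passed the filter on low signal described below. The samples were whole mouse lenses measured on 10 Affymetrix mouse 430 2 arrays, which give 1 brightness value, the signal, for each set of short probes to a transcript.

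The tested lenses carried a conditional null allele of Klf4, a zinc finger transcription factor, and are labelled Klf4CN; the lenses they were set against were wild type (WT). At postnatal day 56 (PN56, young adults) there were 2 arrays of Klf4CN and 2 of WT, each of an independent preparation of lenses pooled from 3 mice. At embryonic day 16.5 (E16.5) there were 3 arrays of Klf4CN and 3 of WT, each of an independent preparation pooled from 5 embryos. The p-values below therefore measure the spread between pools. The labels name neither the Cre driver nor the deleted part of Klf4.

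Connexins are membrane proteins that assemble into gap junction channels between neighbouring cells. The lens has no blood vessels of its own once mature, and its cells share ions, metabolites and water through such channels. Gja1 is known chiefly from the epithelial sheet at the front of the lens, and Gja3 from the fibre cells that make up its bulk, where its loss in mice gives a nuclear cataract. Gje1 is a less studied member of the family; a mutation of it in mice disturbs lens development.

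KLF factors are known to bind GC-rich and CACCC-like DNA, so the bases just before the start of the genes are shown with those letters searched for on both strands. RefSeq windows of 250 bases before the start were given for Gja1 and Gja3 (build GRCm38.p6). Capitals mark CACCC or its reverse complement GGGTG, and CACGCCC or its reverse complement GGGCGTG; none of these matches overlap one another. Of 32817 RefSeq windows of the same length, 52.0% hold CACCC and 7.54% hold CACGCCC on either strand.
Gja1, chr10:56377050-56377299, plus strand: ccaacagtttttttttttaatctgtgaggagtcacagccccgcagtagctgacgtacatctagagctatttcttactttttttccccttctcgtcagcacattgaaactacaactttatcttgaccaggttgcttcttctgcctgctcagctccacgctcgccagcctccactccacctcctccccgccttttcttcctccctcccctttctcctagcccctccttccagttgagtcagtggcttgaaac
Gja3, chr14:57058031-57058280, minus strand: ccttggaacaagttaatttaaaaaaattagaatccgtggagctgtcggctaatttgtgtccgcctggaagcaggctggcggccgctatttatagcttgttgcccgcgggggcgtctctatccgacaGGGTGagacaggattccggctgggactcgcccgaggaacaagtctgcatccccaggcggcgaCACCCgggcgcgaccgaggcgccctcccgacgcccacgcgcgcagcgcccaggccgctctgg
The Gja1 window, 50% G or C, held neither motif. The Gja3 window, 62.8% G or C, held CACCC at 2 places, 124 and 62 bases before the start, which 21.1% of windows match or exceed, and CACGCCC at none. A second RefSeq start of Gja3 lies within the same locus. The 250 bases before it (chr14:57057724-57057973, minus strand), 76% G or C, held CACCC at 2 places, which 21.1% of windows match or exceed. They held CACGCCC at 2 places, which 1.21% of windows match or exceed. The windows compared were not matched for their share of G or C. These matches describe letters in a window and say nothing of binding.

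The deposited signals had been scaled to a common level, with a trimmed mean of 500 on every array. Median signals were 63.0 to 76.9 at E16.5 and 91 to 108.6 at PN56. The targeted gene was not lower in the lenses labelled Klf4CN. The brighter Klf4 probe set read 731.8 and 702.2 in PN56 lenses labelled Klf4CN, against 156.5 and 213.5 in PN56 WT lenses (log2 difference 1.88, limma adjusted p = 0.00411). At E16.5 it read 1360.3, 804.8 and 1071.9 in Klf4CN and 774.5, 1015.4 and 428.4 in WT, which overlapped (0.59, limma adjusted p = 0.9998). A second Klf4 probe set gave 1.04 at PN56 and 0.65 at E16.5, neither past the test. Whether either set lies outside the deleted part was not given, and such a set would check nothing, so each direction below is that of the lenses labelled Klf4CN. A poly-A spike control added at preparation (Dap) averaged 6.55 on PN56 Klf4CN and 12.9 on PN56 WT arrays, against 3576 on E16.5 Klf4CN and 3655 on E16.5 WT arrays, so that age, preparation and the number of animals pooled cannot be told apart. A control set for the 5′ end of 18S ribosomal RNA averaged 8353 ± 3751 in PN56 Klf4CN and 1699 ± 1656 in PN56 WT (SD, n = 2 each), and 21778 ± 945 in E16.5 Klf4CN and 1869 ± 646 in E16.5 WT (SD, n = 3 each); its part in the results was not tested.

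Signals were compared as log2(signal + 16) in a single limma fit of all 10 arrays and 13440 genes, each gene read from its brightest probe set; a gene was called past the test at a Benjamini-Hochberg adjusted p under 0.05. In PN56 lenses 1 of the 3 connexin genes was higher in Klf4CN than in WT (Gje1), 1 was lower (Gja1) and 1 did not pass the test (Gja3). Of all genes tested, 13% were called in this comparison, 6.04% higher and 6.98% lower. The log2 medians of the arrays differed by −0.13 between Klf4CN and WT at PN56 and by 0.52 between PN56 and E16.5 in WT, and centring each array on its median gave a PN56 split of 912 higher and 356 lower in place of 812 and 938. At E16.5 none of the 3 passed the test; over all genes limma called 1, or 0.00744%, while 606 had an unadjusted p under 0.05. The share called was 55.7% between ages in WT and 52.1% in Klf4CN, so a change with age was the common case among all genes. In Klf4CN 21.6% were higher and 30.5% lower with age, or 2905 and 4101 genes (1661 and 5702 after centring), and in WT 25% were higher and 30.7% lower, or 3357 and 4126 genes (1590 and 6408 after centring).

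**Figure D1:**
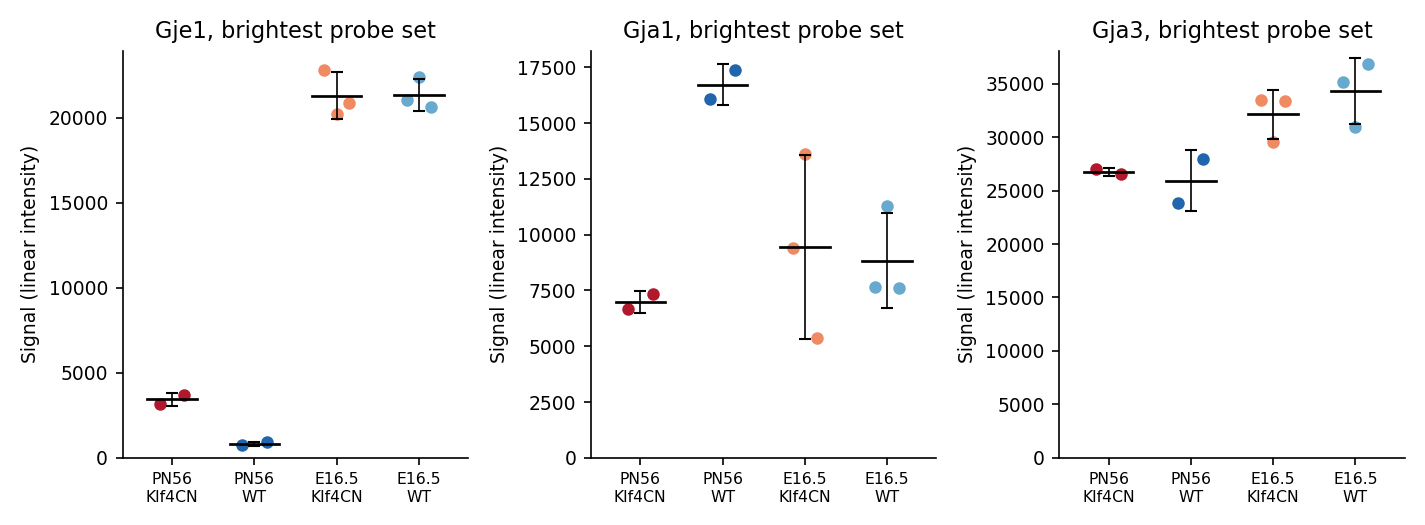
Signal of the brightest probe set of Gje1, Gja1 and Gja3 on each of the 10 arrays, by group (linear axis from 0; points are arrays, lines are group means and bars are SD). The PN56 Gje1 points of Klf4CN, 3154.5 and 3713.5, lie above those of WT, 750 and 915, the PN56 Gja1 points of Klf4CN lie below those of WT, and the Gja3 points of the genotypes overlap.

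Gje1 was measured by 1 probe set (1430110_at). Its signal was 3154.5 and 3713.5 on the PN56 Klf4CN arrays and 750 and 915 on the PN56 WT arrays. At E16.5 it was 22838.3, 20229.6 and 20854.9 on the Klf4CN arrays and 21026.9, 22426.1 and 20639.9 on the WT arrays. The genotypes overlapped at E16.5 and stood apart at PN56, with both Klf4CN arrays higher. Groups that do not overlap are common in this comparison, at 50.8% of all genes tested (21.8% higher and 29% lower in Klf4CN); at E16.5 they made up 11.8%.

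Gje1 averaged 3434 ± 395 in PN56 Klf4CN lenses and 833 ± 117 in PN56 WT lenses (SD, n = 2 each), which is 4.07-fold higher on the log2(signal + 16) scale (log2 difference 2.03 ± 0.12 SE, 95% interval 1.76 to 2.29, limma adjusted p = 4.931e-06). With arrays centred on their medians the PN56 difference was 2.15. At E16.5 the averages were 21308 ± 1362 in Klf4CN and 21364 ± 940 in WT (SD, n = 3 each). The E16.5 difference was within the replicate spread, with an interval of −0.22 to 0.21 on the log2 scale (limma adjusted p = 0.9998). The difference between the PN56 and E16.5 effects was itself past the test, at 2.03 ± 0.16 (SE, interval 1.69 to 2.37, limma adjusted p = 1.069e-04); 4.75% of all genes passed this test (2.66% higher and 2.09% lower, or 357 and 281 genes, 391 and 79 after centring), and Gje1 was the only 1 of the 3 connexin genes to do so.

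Gje1 was lower in the adult in both genotypes. The log2 difference of PN56 minus E16.5 was −2.63 ± 0.11 in Klf4CN lenses (SE, limma adjusted p = 4.389e-09) and −4.66 ± 0.11 in WT lenses (SE, limma adjusted p = 5.954e-11). The ages did not overlap in either genotype, as for 70% of all genes in Klf4CN (30.7% higher and 39.2% lower at PN56) and 70.4% in WT (33.4% higher and 37% lower). These differences correspond to 6.19-fold lower in Klf4CN and 25.3-fold lower in WT; with arrays centred on their medians the log2 differences were −2.97 in Klf4CN and −5.18 in WT. The size of the age difference therefore differed between genotypes by the same 2.03 tested above, since that term is one and the same. The order of the groups ran from E16.5, where the genotypes did not differ beyond their spread, through PN56 Klf4CN to PN56 WT.

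Gja1 was measured by 6 probe sets, 4 of which carry the suffix x, used by the manufacturer for sets in which some probes can match other transcripts. The brightest (1437992_x_at) read 6650.3 and 7343.9 on the PN56 Klf4CN arrays and 16068.5 and 17364.9 on the PN56 WT arrays. At E16.5 it read 9402.2, 13599.3 and 5370.4 on the Klf4CN arrays and 7637.0, 11282.5 and 7600.6 on the WT arrays. The PN56 genotypes did not overlap, with Klf4CN lower, and the E16.5 genotypes did, with replicate 2 highest in both. The summed signal of 8 retinal neuron markers was also highest in replicate 2, at 10765.7 in Klf4CN and 4329.5 in WT. In replicates 1 and 3 it was 3505.9 and 8154.9 in Klf4CN, and 346.6 and 3266.3 in WT. The remaining order differed, since Klf4CN replicate 3 was lowest for Gja1 but not for these markers. Among the other marker lists, only the photoreceptor sum was highest in replicate 2 of both genotypes (426.1 in Klf4CN, 327.3 in WT). The mean log2 value of astrocyte and Müller glia markers was also highest in replicate 2 of both (8.48 in Klf4CN, 8.13 in WT). Their sum was highest in replicate 2 in Klf4CN (9110) but in replicate 3 in WT (8539.5). The part of these cells in the Gja1 signal was not tested.

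Gja1 averaged 6997 ± 490 in PN56 Klf4CN lenses and 16717 ± 917 in PN56 WT lenses (SD, n = 2 each), 2.39-fold lower (log2 difference −1.26 ± 0.32 SE, interval −1.95 to −0.57, limma adjusted p = 0.0225; −1.13 with arrays centred on their medians). This call rested on every PN56 array. It was lost without PN56 WT replicate 1 (−1.31, limma adjusted p = 0.0787), without PN56 WT replicate 2 (−1.20, limma adjusted p = 0.0852), without PN56 Klf4CN replicate 1 (−1.18, limma adjusted p = 0.0812) and without PN56 Klf4CN replicate 2 (−1.33, limma adjusted p = 0.0763), each leaving 1 array in a group. It also ended with the mean of the 6 probe sets (−1.01, limma adjusted p = 0.118), without an intensity trend (limma adjusted p = 0.0843) and with array weights (limma adjusted p = 0.159). At E16.5 the averages were 9457 ± 4115 in Klf4CN and 8840 ± 2115 in WT (SD, n = 3 each), a log2 difference of 0.023 ± 0.26 with an interval of −0.54 to 0.59 (limma adjusted p = 0.9998). The difference between the PN56 and E16.5 effects was −1.28 ± 0.41 and did not pass the test (limma adjusted p = 0.09999); without E16.5 Klf4CN replicate 3, the lowest of its group, it was −1.64 and did (limma adjusted p = 0.0156).

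All 6 Gja1 probe sets lay on the lower side in PN56 Klf4CN lenses, over a range of −1.35 to −0.15, and 3 of them passed the test when each probe set was tested by itself, against 10.2% of all 23670 probe sets (5.15% lower). The 3 that passed were 1437992_x_at (−1.26, limma adjusted p = 0.0272), 1415800_at (−1.25, limma adjusted p = 0.0361) and 1438945_x_at (−1.24, limma adjusted p = 0.0427). These values are not independent, since the probe sets read the same RNA. Leaving out each array in turn kept the call of 1415800_at in 5 of 10 fits; it ended without each of the 4 PN56 arrays and without E16.5 Klf4CN replicate 1 (differences of −1.35 to −1.14, limma adjusted p up to 0.157). The call of 1438945_x_at held in 3 of 10 and ended without the same arrays and without E16.5 WT replicate 1 or 3 (differences of −1.38 to −1.10, limma adjusted p up to 0.151). With each array centred on its median the calls of 1415800_at (−1.12, limma adjusted p = 0.0656) and 1438945_x_at (−1.11, limma adjusted p = 0.0685) ended as well.

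The other Gja1 probe sets differed in size. The set 1415801_at was the dimmest and read 434.7 and 532.2 on PN56 Klf4CN arrays, against 440 and 648.4 on PN56 WT arrays, and its genotypes overlapped (−0.15 ± 0.44 SE, interval −1.11 to 0.81, limma adjusted p = 0.871). The set 1438650_x_at read 1612.6 and 1968.8 in PN56 Klf4CN, against 3758.2 and 5574.1 in PN56 WT, without overlap but not past the test (−1.35, limma adjusted p = 0.0763); without E16.5 Klf4CN replicate 2 it passed (limma adjusted p = 0.0138). The set 1438973_x_at read 340.5 and 548 in PN56 Klf4CN, against 671.7 and 857.1 in PN56 WT (−0.79, limma adjusted p = 0.291). At E16.5 all 6 lay between 0.017 and 0.20 on the log2 scale and none passed the test, as for all but 0.00422% of probe sets.

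**Figure D2:**
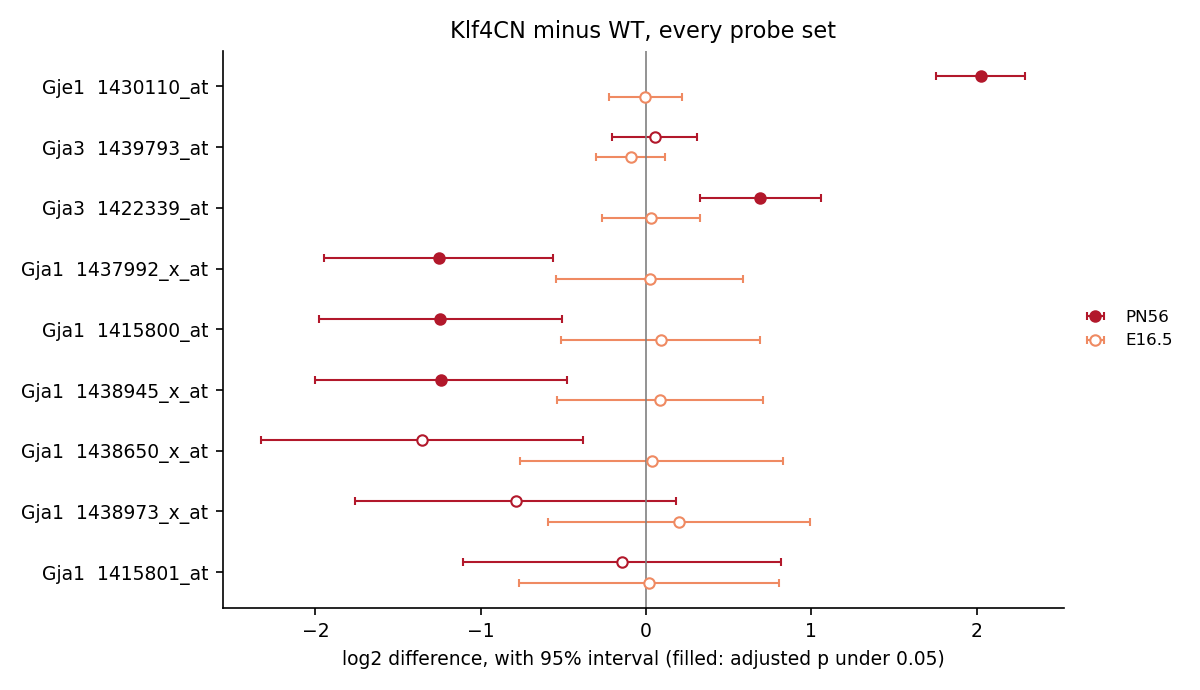
Log2 difference of Klf4CN minus WT with its 95% interval for each of the 9 probe sets, at PN56 and at E16.5. At PN56 the 6 Gja1 sets lie between −1.35 and −0.15, the Gja3 sets at 0.052 and 0.69 and the Gje1 set at 2.03, while at E16.5 every interval crosses 0.

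With age, Gja1 was higher at PN56 than at E16.5 in WT lenses by its brightest probe set (0.94 ± 0.29 SE, limma adjusted p = 0.0149), and the PN56 and E16.5 arrays did not overlap. This call ended without PN56 WT replicate 1 (0.998, limma adjusted p = 0.0538), without PN56 WT replicate 2 (0.89, limma adjusted p = 0.0817) and with arrays centred on their medians (0.43, limma adjusted p = 0.231). In Klf4CN lenses the difference was −0.34 ± 0.29 (−0.68 with centred arrays) and did not pass (limma adjusted p = 0.354). Of the fits that left out 1 array, only that without E16.5 Klf4CN replicate 3 passed (−0.69, limma adjusted p = 0.0154). By probe set, 5 of 6 were higher with age in WT (52.1% of all probe sets were called, 26% higher and 26% lower) and 1438650_x_at, at −0.11, was not past the test. Leaving out 1 array kept 1415800_at and 1415801_at past the test in all 10 fits. It ended the call of 1437992_x_at without E16.5 WT replicate 1, E16.5 WT replicate 3 or either PN56 WT array, that of 1438973_x_at without the same 4, and that of 1438945_x_at without E16.5 WT replicate 1, E16.5 WT replicate 3 or PN56 WT replicate 2, with limma adjusted p up to 0.0863, 0.191 and 0.113 in turn. With arrays centred on their medians 1415801_at alone of the 5 stayed past it (1.90, limma adjusted p = 9.754e-04), while 1415800_at (0.69, limma adjusted p = 0.0833), 1438945_x_at (0.49, limma adjusted p = 0.214), 1438973_x_at (0.57, limma adjusted p = 0.234) and 1437992_x_at were not. Markers of cells known to hold Gja1 were higher with age in WT as well: 4 of 6 for lens epithelium were higher and 1 lower (sums of 68945.6 to 79338.1 at PN56, against 38527.3 to 40985.2 at E16.5), 6 of 7 tested glial markers were higher (61446.8 to 61632.3 at PN56, against 7392.3 to 8539.5 at E16.5), and of 2 tested corneal markers Aldh3a1 was (sums of the 4 corneal markers 11281.7 to 13274 at PN56, against 103.2 to 158.2 at E16.5). Over all genes, 25% were higher and 30.7% lower with age in WT. The glial sum at PN56 rested mostly on Aldoc, which averaged 52812 in WT, and the corneal sum on Aldh3a1, which averaged 12029. The lens epithelium sum rested mostly on Sparc, which averaged 56807 in PN56 WT. The part of these cells in the Gja1 difference with age was not tested.

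In Klf4CN lenses the Gja1 probe sets went opposite ways with age: 1 was higher, 1 lower and 4 did not pass, where 48.8% of all probe sets were called, 22.9% higher and 25.9% lower. The set 1415801_at read 434.7 and 532.2 at PN56, against 59.0, 174.4 and 63.6 at E16.5, and was 4.76-fold higher (2.25, limma adjusted p = 5.757e-04). The set 1438650_x_at read 1612.6 and 1968.8 at PN56, against 3728.5, 10267.8 and 3371 at E16.5, and was lower (−1.50, limma adjusted p = 0.00913), a call that ended without PN56 Klf4CN replicate 1 (limma adjusted p = 0.0673). By the brightest set the order of the Gja1 group means was PN56 WT, E16.5 Klf4CN, E16.5 WT and PN56 Klf4CN; the E16.5 neighbours did not differ beyond their spread, and the PN56 Klf4CN arrays lay just below all E16.5 WT arrays, a pair that was not tested. By 1438650_x_at both E16.5 means lay above the PN56 WT mean.

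Besides lens epithelium, Gja1 is known from astrocytes and corneal epithelium, and whole-lens RNA mixes epithelium and fibres, so fewer cells of a type and less RNA per cell cannot be told apart. Among 6 lens epithelium markers, 3 were lower in PN56 Klf4CN lenses and the other 3 did not pass the test. Of those 3, Cdh1 lay on the higher side (0.25, limma adjusted p = 0.351). It read 3321.6 to 3954.2 in Klf4CN and 2930.6 to 3172.1 in WT, without overlap, as for 50.8% of all genes. The summed signal of the 6 was 55953.8 to 61467.4 in Klf4CN and 68945.6 to 79338.1 in WT. It rested mostly on Sparc, which averaged 46183 in Klf4CN and 56807 in WT and did not pass (−0.29, limma adjusted p = 0.0813). Of 12 fibre markers measured, 9 were lower, with sums of 457088 to 466383 in Klf4CN and 637479 to 696962 in WT. In this comparison 6.98% of all genes were lower and 6.04% higher. Sums of markers of other tissues a dissected lens can carry along were also lower in PN56 Klf4CN for corneal epithelium (5238.4 to 6501.6 in Klf4CN, 11281.7 to 13274 in WT; 4 markers) and pigment cells (3258.5 to 3614.6 in Klf4CN, against 6789.5 to 8502.2 in WT; 8 markers), though the mean log2 value of the corneal markers overlapped between genotypes. The corneal sum rested mostly on Aldh3a1, which averaged 5670 in Klf4CN and 12029 in WT. The other corneal markers were dim. Krt12 averaged 61.1 in Klf4CN and 86.95 in WT, Krt14 58.2 and 86.1, and Krt5 80.85 and 75.45. All 6 tested pigment markers lay on the lower side, and none passed the test. For mesenchyme and for astrocytes and Müller glia, with 8 markers each, the sum and the mean log2 value went opposite ways. The mesenchyme sum was 1934.4 to 2245.3 in Klf4CN, against 2473.7 to 2826.2 in WT, and its brightest member was Pdgfra, which averaged 1024 in Klf4CN and 1747 in WT. Its mean log2 value was 7.16 to 7.33 in Klf4CN and 6.86 to 7.04 in WT, and 5 of 7 tested members lay on the higher side, of which Col3a1 passed the test (1.48, limma adjusted p = 0.0396). The glial sum was 49539.4 to 52394 in Klf4CN, against 61446.8 to 61632.3 in WT, and rested mostly on Aldoc, which averaged 41398 in Klf4CN and 52812 in WT. Its mean log2 value was 9.71 to 9.79 in Klf4CN and 9.58 to 9.65 in WT, and 4 of 7 tested members lay on the higher side, of which Gfap passed the test (1.60, limma adjusted p = 0.0284). The sums overlapped for retinal neurons, photoreceptors, endothelium and macrophages. Of 8 macrophage markers 2 were higher in PN56 Klf4CN, Tyrobp and Cd68; the sums were 1793 to 3161.8 in Klf4CN and 1841.9 to 1858.7 in WT, and the mean log2 values, 7.49 to 8.04 in Klf4CN and 6.89 to 7.35 in WT, did not overlap. The endothelial markers Pecam1 and Tie1 and the mesenchyme marker Twist1 lay under the filter level on every PN56 array. At E16.5 all 8 retinal neuron markers and all 6 tested pigment markers lay on the higher side in Klf4CN (median log2 differences 1.82 and 1.88). So did 6 of 7 tested mesenchyme markers (0.80), but only 2 of 6 lens epithelium and 2 of 12 fibre markers. None of these passed the test at E16.5. At PN56 the medians were −0.47 for retinal neurons, −0.94 for pigment cells and 0.31 for mesenchyme. The part of these cells in the Gja1 and Gje1 differences at either age was not tested.

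Gja3 was measured by 2 probe sets. The brightest (1439793_at) read 27028.7 and 26509.9 on the PN56 Klf4CN arrays and 23882 and 27919.7 on the PN56 WT arrays. At E16.5 it read 33472.1, 29504.4 and 33428.2 on the Klf4CN arrays and 35144.4, 30925.3 and 36866.9 on the WT arrays. The genotypes overlapped at both ages, and the PN56 values lay below the E16.5 ones. The PN56 averages were 26769 ± 367 in Klf4CN and 25901 ± 2855 in WT (SD, n = 2 each), a log2 difference of 0.052 ± 0.12 with an interval of −0.20 to 0.30 (limma adjusted p = 0.810). At E16.5 they were 32135 ± 2278 in Klf4CN and 34312 ± 3057 in WT (SD, n = 3 each), a difference of −0.093 ± 0.094 (interval −0.30 to 0.11, limma adjusted p = 0.9998). The genotype directions turned under quantile normalization, to −0.031 at PN56 and 0.068 at E16.5, still not past the test.

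The second Gja3 probe set (1422339_at) did not read the same way. It gave 8741.9 and 10523.6 on the PN56 Klf4CN arrays and 6227 and 5657.2 on the PN56 WT arrays, which did not overlap. At E16.5 it gave 2423.6, 2124.1 and 2048.7 in Klf4CN and 1836.9, 2024.7 and 2668.9 in WT, which did. At PN56 it was 1.61-fold higher in Klf4CN (0.69 ± 0.17 SE, interval 0.33 to 1.06, limma adjusted p = 0.0222), where 5.09% of all probe sets were called higher. That call ended without PN56 WT replicate 1, PN56 WT replicate 2 or PN56 Klf4CN replicate 2 (limma adjusted p up to 0.137, differences of 0.56 to 0.82 over all 10 fits). The difference between the PN56 and E16.5 effects by this set was 0.66 and did not pass (limma adjusted p = 0.123; 3.34% of all probe sets passed this test), nor did the 0.14 of the brightest set (limma adjusted p = 0.630).

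The Gja3 probe sets also pointed opposite ways with age. The brightest set was lower at PN56 in WT lenses (−0.41 ± 0.11 SE, limma adjusted p = 0.00591), a call that ended without PN56 WT replicate 1 (−0.29, limma adjusted p = 0.0702). Its size depended on the scaling, at −0.99 with quantile normalization and −0.92 with centred arrays. In Klf4CN lenses it was −0.26 ± 0.11 and did not pass (limma adjusted p = 0.0550), but it passed with quantile normalization (−1.09) and centred arrays (−0.61). The Klf4CN value also passed without E16.5 Klf4CN replicate 2 (−0.32, limma adjusted p = 0.0382) and, at the same −0.26, without PN56 WT replicate 1 (limma adjusted p = 0.0421) or replicate 2 (limma adjusted p = 0.0416). The second set was higher at PN56 in both genotypes, by 2.12 ± 0.15 in Klf4CN (limma adjusted p = 3.818e-07) and 1.46 ± 0.15 in WT (limma adjusted p = 7.488e-06), and kept these calls in all 10 fits that left out an array. With centred arrays these were 1.78 in Klf4CN and 0.94 in WT, still past the test. By the brightest set the order of the group means was E16.5 WT, E16.5 Klf4CN, PN56 Klf4CN and PN56 WT, in which no neighbours passed the test. By the second set it was PN56 Klf4CN, PN56 WT, E16.5 Klf4CN and E16.5 WT, with both ages apart. Where each set lies on the transcript was not used here, so the disagreement limits any statement about Gja3 and age to a single probe set.

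**Figure D3:**
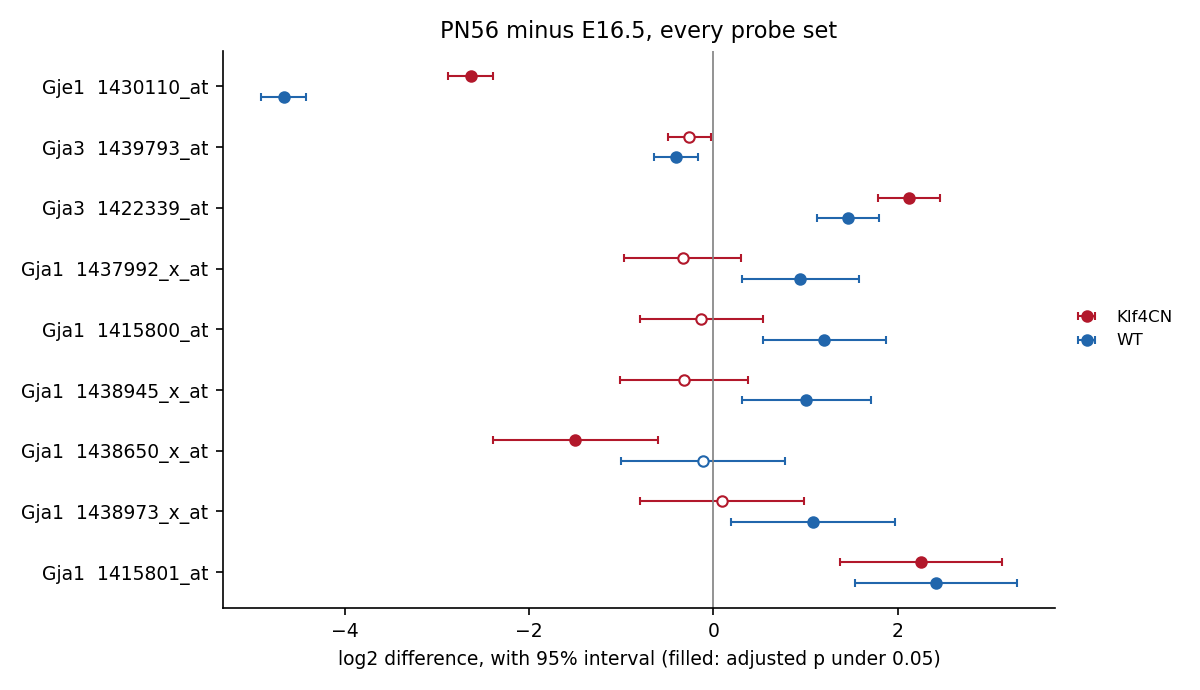
Log2 difference of PN56 minus E16.5 with its 95% interval for each of the 9 probe sets, in Klf4CN and in WT. The Gje1 set lies at −2.63 in Klf4CN and −4.66 in WT, the Gja3 sets lie on opposite sides of 0, and the Gja1 sets run from −1.50 to 2.25 in Klf4CN and from −0.11 to 2.42 in WT.

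Of 19 other connexin and pannexin genes listed, 14 were on the array and 5 were tested, 9 lying below the filter with no single signal above 170.1. The 5 were Gja4 (connexin37), Gjb6 (connexin30), Gjc1 (connexin45) and the pannexins Panx1 and Panx2. None of the 5 passed the test between genotypes at PN56 (median log2 difference −0.12, against −0.06 over all genes) or at E16.5 (median 0.00). At PN56 the largest values were a Gjc1 difference of 0.69 (limma adjusted p = 0.0524) and a Gjb6 difference of −1.09 (limma adjusted p = 0.0910). By its brightest probe set Gjc1 read 213.3 and 228.3 in Klf4CN and 116.8 and 147.1 in WT. Gjb6 read 88.1 and 128 in Klf4CN and 167.4 and 352.6 in WT. Neither pair overlapped, as for 50.8% of all genes. A second Gjc1 probe set read 181 and 208.8 in Klf4CN and 98.5 and 219.3 in WT, which overlapped. Tested by itself, that set gave 0.36 (limma adjusted p = 0.559).

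With age, 3 of the 5 were lower in Klf4CN and 2 did not pass, and in WT 3 were lower, 1 higher and 1 did not pass. Of all genes 30.5% were lower and 21.6% higher in Klf4CN, and 30.7% lower and 25% higher in WT. Gja4, a connexin known from blood vessel walls, read 7.9 and 8.9 in PN56 Klf4CN and 12.1 and 15.2 in PN56 WT, against 280.3 to 525.9 in E16.5 Klf4CN and 414.8 to 549 in E16.5 WT. It was lower at PN56 by both comparisons (−4.13 in Klf4CN, limma adjusted p = 5.046e-07; −4.07 in WT, limma adjusted p = 4.968e-07), and the 8 endothelial markers were each lower at PN56 in both genotypes. Gjc1 was lower as well (−2.30 in Klf4CN and −2.83 in WT), as was Panx1 (−1.15 in Klf4CN and −0.95 in WT), while Gjb6 was 0.15 in Klf4CN (limma adjusted p = 0.755) and higher in WT (1.24, limma adjusted p = 0.0112). The difference between these age differences of Gjb6 did not pass the test with every probe set by itself (limma adjusted p = 0.273).

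**Figure D4:**
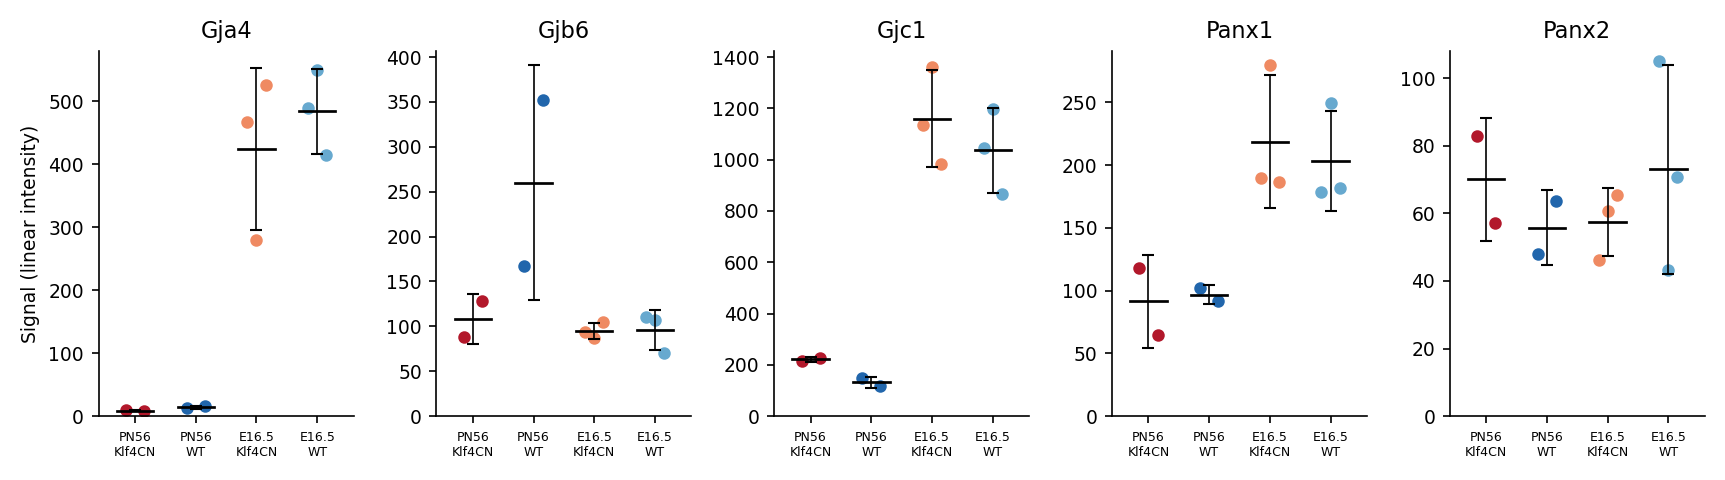
Signal (linear axis from 0) of the 5 other connexin and pannexin genes that were tested, on each of the 10 arrays by group, with lines at the group means and bars for SD. Gja4 and Gjc1 stand lower at PN56 than at E16.5 in both genotypes, and the Gja4 points at PN56 lie between 7.9 and 15.2.

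Genes known to bind or regulate connexins, or to move ions, water and glucose in the lens, were read beside the connexins. Of 20 connexin partners and regulators tested, 2 were higher, 2 were lower and 16 did not pass in PN56 Klf4CN lenses (median −0.08), where 6.04% of all genes were higher and 6.98% lower, and none of 20 passed at E16.5. Ptprm, a receptor tyrosine phosphatase, read 345.8 and 467.7 in Klf4CN and 136.2 and 145.4 in WT (1.42, limma adjusted p = 0.002897), and Tsg101, a member of the endosomal sorting complex, was higher too (0.45, limma adjusted p = 0.01995). Ezr, which links membrane proteins to actin, read 5717.5 and 6346.8 in Klf4CN and 8793.7 and 8843.1 in WT (−0.55, limma adjusted p = 0.004143), and Eps15, an endocytic adaptor, was lower too (−0.74, limma adjusted p = 0.004268). With age in WT 3 of the 20 were higher and 11 lower, against 25% and 30.7% of all genes; Akt1, a kinase, was lower (−1.60, limma adjusted p = 5.186e-07).

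Of 12 transport genes tested at PN56, 1 was higher, 3 were lower and 8 did not pass (median −0.28), beside the same shares of all genes. The glucose transporter Slc2a1 read 10899.7 and 12949.9 in Klf4CN and 19690.9 and 19796.2 in WT (−0.73, limma adjusted p = 9.712e-04). The epithelial water channel Aqp1 was lower (−1.001, limma adjusted p = 0.004806), as was the fibre water channel Mip (−0.35, limma adjusted p = 0.04669), and the sodium pump subunit Atp1b1 was higher (1.20, limma adjusted p = 0.02711). With age in WT 6 of the 12 were higher and 6 did not pass (25% of all genes were higher); Aqp1 was higher by 4.19 on the log2 scale.

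The genes whose log2 values, centred over the 10 arrays, were nearest to each member were found by root mean square difference among the 13440 tested. Gje1 was nearest to Fignl1 (0.28), Fgfbp3 (0.29), Tyrobp, an adaptor of myeloid cells (0.32), Gcg (0.33) and Cks2 (0.35). Gja1 was nearest to Pls1 (0.26), Catsper1 (0.27), Wnt5a (0.28), Ric3 (0.28) and Tmem150c (0.30), and Gja3 to Pepd (0.05), Pcgf6 (0.07), Metap2 (0.07), Cadm1 (0.07) and Rbm24 (0.08). Between the connexin genes themselves the value was 0.65 for Gja1 and Gja3, 2.22 for Gja1 and Gje1 and 1.74 for Gja3 and Gje1. The neighbours were picked for the smallest values among all genes tested, so the larger values do not show that the members are unlike. Some neighbours were dim, with group means under the filter level of 45.1. In PN56 WT Fignl1 averaged 9.35 and Tyrobp 15.4, and in PN56 Klf4CN Pls1 averaged 42.5 and Catsper1 36.7. All of these values are descriptions over 10 arrays that share 4 groups and 1 scaling.

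**Figure D5:**
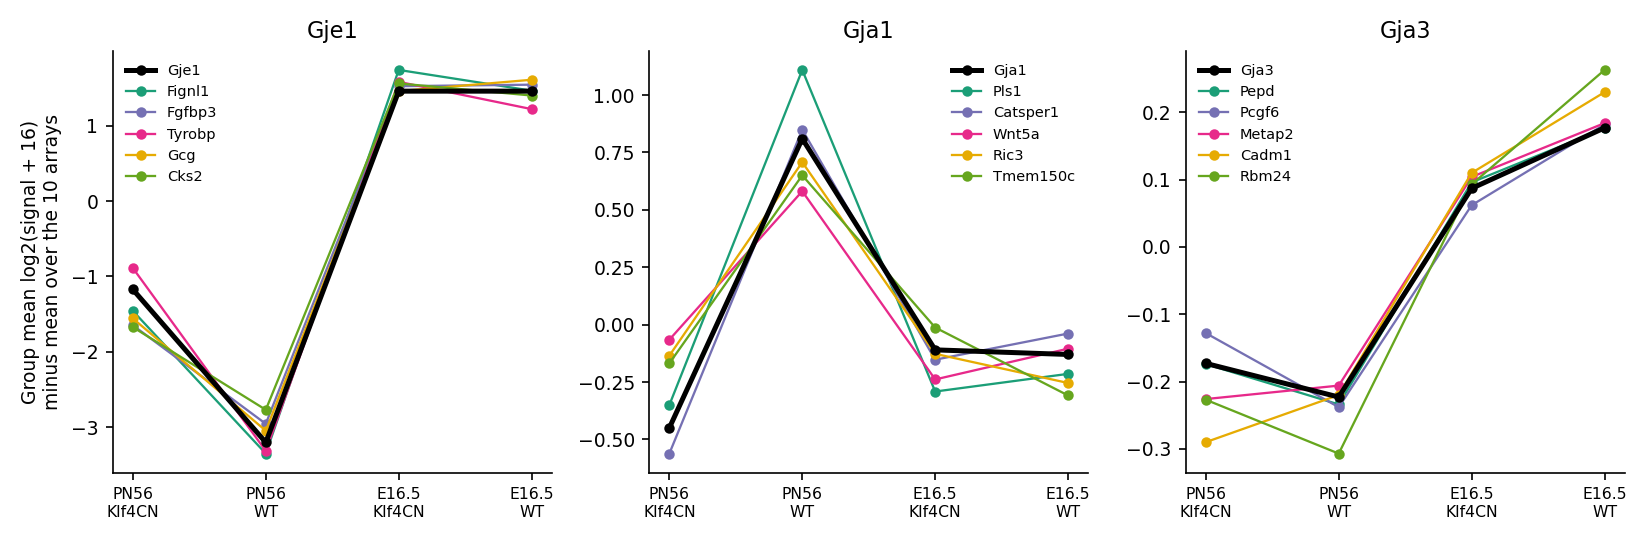
Group mean of log2(signal + 16) minus the mean over the 10 arrays, for each connexin gene (black) and its 5 nearest genes. Gje1 and its neighbours lie lower at PN56 than at E16.5, and lowest in PN56 WT.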

How the data were processed

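RNA of 10 whole-lens preparations was measured on Affymetrix arrays, 1 array per sample. Per the labels' protocols, total RNA came from an RNeasy kit, and biotin was added in amplification with an IVT kit for 3′ ends. The values deposited for each probe set were linear intensities (signals), made with GCOS 1.4 per the submitters' processing notes; other steps and detection calls were not given in the sources used here. The deposited signals had a mean of 500 on each array after trimming 2% at each end, so each array had been scaled, and a gene that holds a large part of the signal can shift the rest. The precision is limited by the number of arrays.

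Of 45101 probe sets 64 were controls, 34945 had a single symbol, 932 several and 9160 none, by the platform annotation; 34741 symbols were matched to RefSeq names (GRCm38.p6) and 0 changed. Values were taken as log2(signal + 16), which understates the change of dim genes. The probe set with the highest mean log2 value stood for a gene, and genes whose mean reached the 40th percentile over probe sets (a signal of 45.1) were tested, 13440 in all; tested by themselves, 23670 probe sets passed. One limma fit (version 3.58.1, R 4.3.3) with 4 group means and an intensity trend gave two-sided tests, adjusted by the Benjamini-Hochberg method over all genes, or over all probe sets where each was tested by itself. Intervals are at 95%. The fit was tested on simulated data. Figures were drawn with matplotlib 3.10.9, and sequences were read with pandas 2.3.3.

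The members, the gene lists and the tests were chosen with earlier results of these data known. Named were all probe sets of the members, Klf4, each tested gene among the other connexins and pannexins, from the lists of partners and of transport the 4 genes of smallest p at PN56 and 1 for age in WT, and the 5 genes nearest to each member. Alternatives were quantile normalization, median centring, offsets of 1 and 64, a stricter filter (60th percentile) or none, single probe sets or their average per gene, no trend, array weights, only the compared groups, a replicate block and leaving out each array; the second and dimmest probe sets, and scalings and left-out arrays for single probe sets, were added after seeing the data.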

Additional observations from a re-analysis of the deposited data

Results flagged for a closer look

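The Klf4CN minus WT difference of Gje1 was not the same at both ages. It was 2.03 on the log2 scale at PN56 (3154.5 and 3713.5 in Klf4CN, against 750 and 915 in WT) and −0.0048 at E16.5, and the test of the difference between them gave 2.03 ± 0.16 (SE, limma adjusted p = 1.069e-04). It passed the test in all 21 alternatives run for it, with values of 1.89 to 2.20 and limma adjusted p of 5.434e-05 to 0.00709. Age is tied to preparation and to the number of animals pooled in these data.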

How the results depend on the processing

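Gje1 kept its calls in all 22 alternatives for PN56 and for age in each genotype. The other values depended on the processing as follows, and the cause was not tested unless the alternative uses fewer arrays. The count of genes called at E16.5 (1 by limma) was 3 under quantile normalization, 8 with array weights, and 0 with averaged probe sets, without trend, with only the compared groups and with the replicate block; leaving out 1 array gave 0 to 3. The PN56 count (1750) was 1054 with the mean of probe sets, 1165 without trend, 637 with array weights and 806 with only the compared groups, and 1061 to 1906 leaving out 1 array. The count for the difference between ages (638) was 292, 201 and 318 under the mean of probe sets, no trend and array weights, and 277 to 940 leaving out 1 array (277 without E16.5 Klf4CN replicate 3). With every probe set by itself the age counts were 11552 in Klf4CN (7006) and 12329 in WT (7483), with more features tested; leaving out 1 array gave 5851 to 7279 and 6545 to 7756.

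At E16.5 the sign of small differences turned: Gja1 to −0.021 with centred medians and −0.074 with array weights, Gja3 to 0.068 under quantile normalization and 0.029 with its second probe set, and Gje1 to 0.11 under quantile normalization. Leaving out 1 array gave −0.29 to 0.38 for Gja1, −0.17 to −0.033 for Gja3 and −0.056 to 0.032 for Gje1, none past the test. Gja1 at PN56 lost its call with the mean of probe sets (−1.01), without trend and with array weights (−1.26 each) and with its dimmest set (−0.15), with adjusted p over its 24 alternatives of 5.584e-04 to 0.871; leaving out 1 array gave −1.33 to −1.18. Gja3 at PN56 was −0.031 under quantile normalization and 0.69, past the test, with its second set, and −0.061 to 0.16 leaving out 1 array. Its difference between ages was −0.099 under quantile normalization. The Gja1 difference between ages ran from −1.64 to −0.97 leaving out 1 array.

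For age in WT, Gja1 lost its call with centred medians (0.43), without trend (0.94) and with array weights (0.93), and was 0.85 to 1.13 leaving out 1 array; Gja3 (−0.41) was −0.99 under quantile normalization, −0.92 with centred medians, 0.53 with the mean of probe sets and 1.46 with its second set (0.94 centred), and −0.52 to −0.29 leaving out 1 array. For age in Klf4CN, Gja1 was 0.011 with the mean of probe sets and 2.25 with its dimmest set, and −0.69 to −0.024 leaving out 1 array. Gja3 passed the test there under quantile normalization (−1.09), centred medians (−0.61) and the filter at the 60th percentile (−0.26, fewer genes tested), was 0.93 with the mean of probe sets and 2.12 with its second set, and was −0.32 to −0.23 leaving out 1 array.

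The replicate numbers were not taken to pair the arrays. Same-numbered deviations correlated at 0.27, 0.24 and 0.05 at E16.5 and 0.04 at PN56. Different-numbered ones ran from −0.28 to 0.06 at E16.5. There WT replicate 3 correlated better with Klf4CN replicate 2 (0.06) than with its own number. With 2 arrays a group the PN56 values are 1 number with either sign, so these values do not settle whether the arrays were paired. With the replicate block the Gja1 difference between ages was −1.28 and passed (limma adjusted p = 0.0206), and so did Gja1 for age in Klf4CN (−0.56, limma adjusted p = 0.0243). With 2 arrays a group at PN56, leaving 1 out assumes that the lone array varies like the other groups. Dim probe sets give little measure of change.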
